A study of Homo sapiens with 4 samples.

Results

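The genes described here encode 10 transcription factors of the AP-1 and C/EBP groups: FOS, FOSB, FOSL1 and FOSL2 of the FOS family, JUN, JUNB and JUND of the JUN family, ATF3, and the C/EBP factors CEBPB and CEBPD. They were chosen by name, and each was placed in the genome by its annotated start site, so the unit measured is the Hi-C bin that holds that start together with 5 bins on each side. The 10 genes lie in 10 different bins of the 14310 bins on the 22 autosomes and the X chromosome. No contact value entered the rule that placed them, but the genes were chosen with earlier results of these data known.

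AP-1 is a dimer of basic leucine zipper (bZIP) proteins. JUN proteins pair with each other, with FOS proteins or with ATF proteins, whereas FOS proteins need a partner such as JUN, and the dimers bind short DNA elements in promoters and enhancers. FOS, JUN and ATF3 are induced within minutes to hours by growth factor and stress signals that pass through RAS and the MAP kinases. C/EBPβ, the product of CEBPB, binds its own element as a dimer and is known for driving inflammatory cytokine genes of the senescence-associated secretory phenotype in fibroblasts, and AP-1 is known as an enhancer-binding factor of the same state. C/EBPδ, the product of CEBPD, is a related acute-phase factor.

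The study measured chromosome contacts by Hi-C in IMR90 cells, a strain of normal human fetal lung fibroblasts. All cells carried ER:HRAS G12V, an oncogenic RAS fused to an oestrogen receptor domain that 4-hydroxytamoxifen (4OHT) switches on, delivered in the retroviral vector pLNCX2. In the OIS condition (oncogene-induced senescence) the cells received 100 nM 4OHT for 6 days, and growing cells (Grow) did not. The 4 samples of the series all carried shA1, a microRNA-embedded short hairpin RNA in the pMSCV vector against HMGA1, an architectural chromatin protein, and fell into 2 growing samples (Grow-shA1) and 2 senescent samples (OIS-shA1, called RIS in the sample titles). Contact maps were given for 4 conditions, namely Grow, Grow-shA1, OIS and OIS-shA1. The 2 samples of each shA1 condition had been merged by the authors into 1 map. The Grow and OIS maps belong to no sample of the series and had been made by the laboratory before, so every difference between a shA1 map and a map without shA1 was also a difference between data sets, and the hairpin and the data set cannot be told apart. With 1 map per condition there was no replicate spread and no test. The SD given beside a value below is the spread over pairs of bins within 1 map, which does not measure the error between cultures. The depth behind single contacts was not given in the maps, so no counting error could be set on any value. No RNA values were used, and nothing here measures expression of the 10 genes.

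Each value is a contact score between 2 bins of about 200 kb, after the authors had balanced the map and divided out the mean decay of contact with distance. A score of 0 is the average for that distance, and negative scores lie below it. The score is log-like, but its log base and any added constant are not given in the sources used here, so differences are given in score units and not as folds. Local contact is the mean score of a gene's bin with the 10 bins on each side, about 2 Mb, and distal contact is the mean over all farther bins of the chromosome. Distal contact was also split by compartment: A bins (the gene-rich, open compartment) and B bins (the closed compartment) were assigned from the first principal component of the Grow map. A bin was kept where at least 50% of its pairs were listed in each of the 4 maps, which left 13597 bins, 5716 of them A and 7881 B. For every gene the percentile states the percentage of kept bins of the same chromosome that had a lower value. These bins include both A and B bins unless A bins alone are named. A difference is called here when it lies in the lowest or highest 10% of its chromosome.

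All 10 genes lay in the A compartment of growing cells. Their first principal component in the Grow map ran from 0.16 for FOSL1 to 1.38 for ATF3, which was at percentile 98.5 of chromosome 1. It was lower in OIS than in Grow for 9 of the 10 genes, for example 0.44 against 0.88 for CEBPB, 0.61 against 0.93 for FOSL2 and 0.89 against 1.16 for FOS, and CEBPD was the exception at 0.89 against 0.87. The component was computed in each map by itself, so its scale may differ between maps. The share of all kept bins that were lower was not computed, so the count is a description. By percentile of the chromosome, JUND was higher in OIS than in Grow, at 85.5 against 84.7, and so was CEBPD, at 81.4 against 76.8. The other genes were lower by percentile, JUNB at 89.2 against 90.4. FOSL1 was the gene with a negative value in OIS, at -0.08. Some of the genes stood alone in their bins and others did not. JUN (chr1:59201351-59406061), CEBPB (chr20:48799088-49001263) and CEBPD were the only protein-coding genes that started in their bins. FOS (chr14:75598587-75799833) shared its bin with TMED10, FOSL2 (chr2:28599231-28802984) with PLB1, and ATF3 (chr1:212601523-212797172) with NENF. The FOSL1 bin (chr11:65600557-65795933) held 16 protein-coding starts, and those of JUNB (chr19:12801737-12995232), FOSB (chr19:45793683-45998429) and JUND (chr19:18390075-18597035) held 13, 7 and 7. A contact of those bins therefore cannot be assigned to the AP-1 gene rather than to a neighbour.

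The promoters of 4 genes that the results below turn on are shown so that the sequence around each start can be read beside the contacts of its bin. Each is the 250 bases before the annotated start on the gene's strand, from GRCh37 (hg19), with the letters TGACG or their reverse complement CGTCA in capitals. TGACG is the core of the cyclic AMP response element (CRE), which ATF and CREB factors and some AP-1 dimers bind. The regions are chr14:75745281-75745530 for FOS on the plus strand, chr2:28615475-28615724 for FOSL2 on the plus strand, chr1:59249720-59249969 for JUN on the minus strand and chr20:48807117-48807366 for CEBPB on the plus strand.
FOS: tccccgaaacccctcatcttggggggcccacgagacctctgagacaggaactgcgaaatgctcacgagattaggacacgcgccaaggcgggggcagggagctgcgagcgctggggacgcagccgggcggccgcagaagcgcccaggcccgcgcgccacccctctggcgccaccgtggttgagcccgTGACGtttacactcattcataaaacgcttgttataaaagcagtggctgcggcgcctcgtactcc
FOSL2: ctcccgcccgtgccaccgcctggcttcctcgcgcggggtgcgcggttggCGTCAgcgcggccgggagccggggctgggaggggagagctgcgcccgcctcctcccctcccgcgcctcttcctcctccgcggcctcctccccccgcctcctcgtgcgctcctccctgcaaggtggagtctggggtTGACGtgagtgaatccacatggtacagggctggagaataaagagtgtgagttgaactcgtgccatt
JUN: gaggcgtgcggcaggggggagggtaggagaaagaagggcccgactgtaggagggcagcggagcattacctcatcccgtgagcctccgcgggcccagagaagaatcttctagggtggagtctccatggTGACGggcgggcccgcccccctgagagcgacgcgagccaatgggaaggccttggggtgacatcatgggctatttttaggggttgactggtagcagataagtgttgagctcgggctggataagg
CEBPB: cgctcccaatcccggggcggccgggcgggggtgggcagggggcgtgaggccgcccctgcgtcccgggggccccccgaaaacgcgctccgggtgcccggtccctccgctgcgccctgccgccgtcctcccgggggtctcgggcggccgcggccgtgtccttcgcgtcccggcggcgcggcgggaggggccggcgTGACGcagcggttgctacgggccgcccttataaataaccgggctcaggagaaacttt

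The CRE core TGACG, read on both strands, was present in this window in 10 of the 10 genes, against 25.3% of 20090 protein-coding promoter windows of the same length. This motif was added after the sequences had been looked at, so the count is a description. Counted from the start, its letters began at base -64 in FOS, -123 in JUN, -57 in CEBPB, and -201 and -66 in FOSL2. The full CRE, TGACGTCA, which contains the core on each strand, was present in 1 of 10 windows, that of JUND, against 2.39% of all windows. The AP-1 element TGANTCA and the C/EBP element TTGCNNAA were present in 0 of 10, against 4.73% and 7.10% of all windows. With shares that low, 0 of 10 says little. Only these exact letters were counted, so variant elements were not looked for. A match is a match of letters and not a bound site.

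Local contact of the 10 genes was lower in OIS than in Grow for 6 of 10, where 65% of all kept bins were lower. In the presence of shA1, OIS-shA1 was below Grow-shA1 for 8 of 10, against 66% of kept bins. OIS-shA1 was below OIS for 6 of 10, against 54.9%, and Grow-shA1 was below Grow for 3 of 10, against 71.7%. The member medians of these 4 differences were -0.11, -0.10, -0.02 and 0.04, and those of all kept bins were -0.12, -0.09, -0.03 and -0.05. The first 3 shares lie near those of all kept bins. All 10 genes were A bins, and of kept A bins 53.8%, 65.3%, 74.7% and 72.7% were lower in the same order. The A medians were -0.02, -0.08, -0.11 and -0.05. Against A bins the share of genes with OIS-shA1 below OIS was thus lower than the background, as was that for Grow-shA1 against Grow. The share for Grow-shA1 against Grow depended on the way local contact was measured: it was 70% of the genes when each gene was taken as its whole 11-bin window. Of the 40 local differences, 5 were called, against 20% of differences over all kept bins, 4 measures and 4 comparisons. The 10 genes differed in direction from one another, and they are taken in turn by family.

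**Figure D1:**
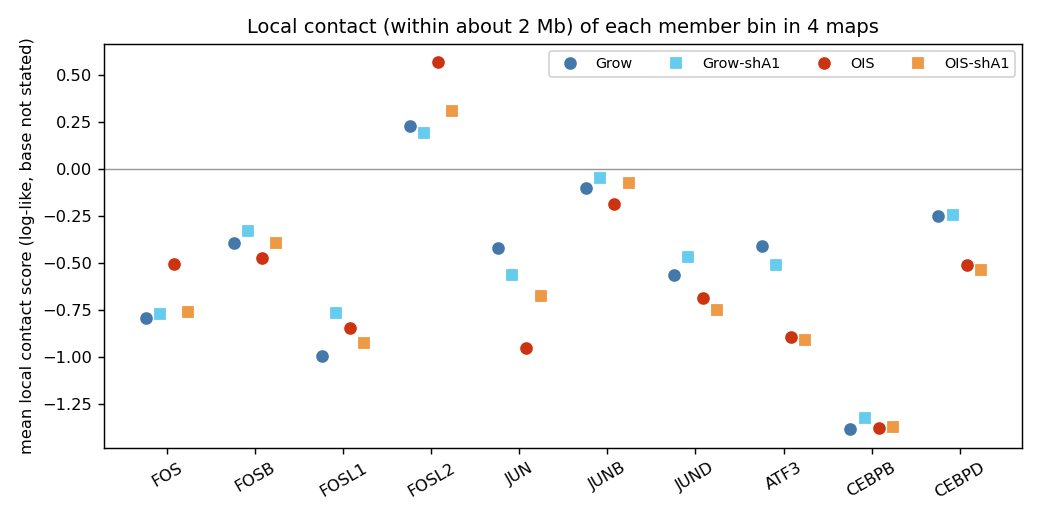
Local contact of each gene's bin in the 4 maps. The vertical axis is the mean contact score over all listed pairs with the 10 bins on each side, and points mark the maps. CEBPB sits lowest in each map, and FOSL2 is the gene above 0 in all 4 maps.

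FOS and FOSL2 had higher local contact in OIS than in Grow, and theirs were the differences called in this comparison. FOS encodes the prototype FOS protein, which activates genes only as a dimer. Its local score was -0.79 ± 0.79 in Grow, -0.77 ± 0.82 in Grow-shA1, -0.50 ± 0.86 in OIS and -0.76 ± 0.88 in OIS-shA1 (SD over 20 pairs). OIS thus stood apart from the other 3 maps, which ran from -0.79 to -0.76. The difference OIS minus Grow was 0.29, at percentile 90.1 of chromosome 14, where the median bin differed by -0.07 with an SD over bins of 0.33. The FOS difference was therefore little more than 1 such SD above the median, just inside the called tail. Among A bins alone it was at percentile 86.7, outside the called tail. The FOS difference was 0.0065 when local contact was taken over 5 Mb in place of 2 Mb. With shA1 the difference between OIS-shA1 and Grow-shA1 was 0.01, at percentile 67.2.

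FOSL2, which encodes FRA2, had local scores of 0.24 ± 1.26 in Grow, 0.20 ± 1.21 in Grow-shA1, 0.59 ± 1.09 in OIS and 0.33 ± 1.13 in OIS-shA1 (SD over 19 pairs). OIS was the highest map, as for FOS. OIS minus Grow was 0.35, at percentile 99.3 of chromosome 2, where the median bin differed by -0.24. Among A bins alone it was at percentile 99.1. The FOSL2 difference ran from 0.19 to 0.63 under the alternatives tried. The difference with shA1 was 0.12, at percentile 88.1. OIS-shA1 was below OIS by -0.27 for FOSL2 and by -0.26 for FOS, at percentiles 10.2 and 14.4, neither of them called. The difference of the differences was -0.23 for FOSL2, at percentile 1.95, and -0.28 for FOS, at percentile 7.37. Among A bins alone these were at percentiles 2.76 and 11.5, the latter outside the lowest 10%.

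The higher local contact of both genes in OIS lay mainly toward higher coordinates. For FOS, 10 of 10 pairs on that side were higher in OIS than in Grow, with a mean difference of 0.44 ± 0.17, and 8 of 10 on the lower side, with 0.13 ± 0.24 (SD over pairs). For FOSL2 the values were 0.57 ± 0.36 with 10 of 10 pairs higher, and 0.12 ± 0.22 with 8 of 10. Neighbouring pairs share bins, so these counts are not independent. FOS lies on the plus strand and so does FOSL2, so higher coordinates are downstream of both genes. OIS-shA1 was below OIS in 17 of 20 pairs of each gene. The neighbourhood moved with the gene: local contact was higher in OIS than in Grow in 11 of the 11 bins of the FOS window and 10 of 11 of the FOSL2 window. It was lower in OIS-shA1 than in OIS in 11 of 11 bins of each window. The pattern was therefore not particular to the gene's own bin.

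**Figure D2:**
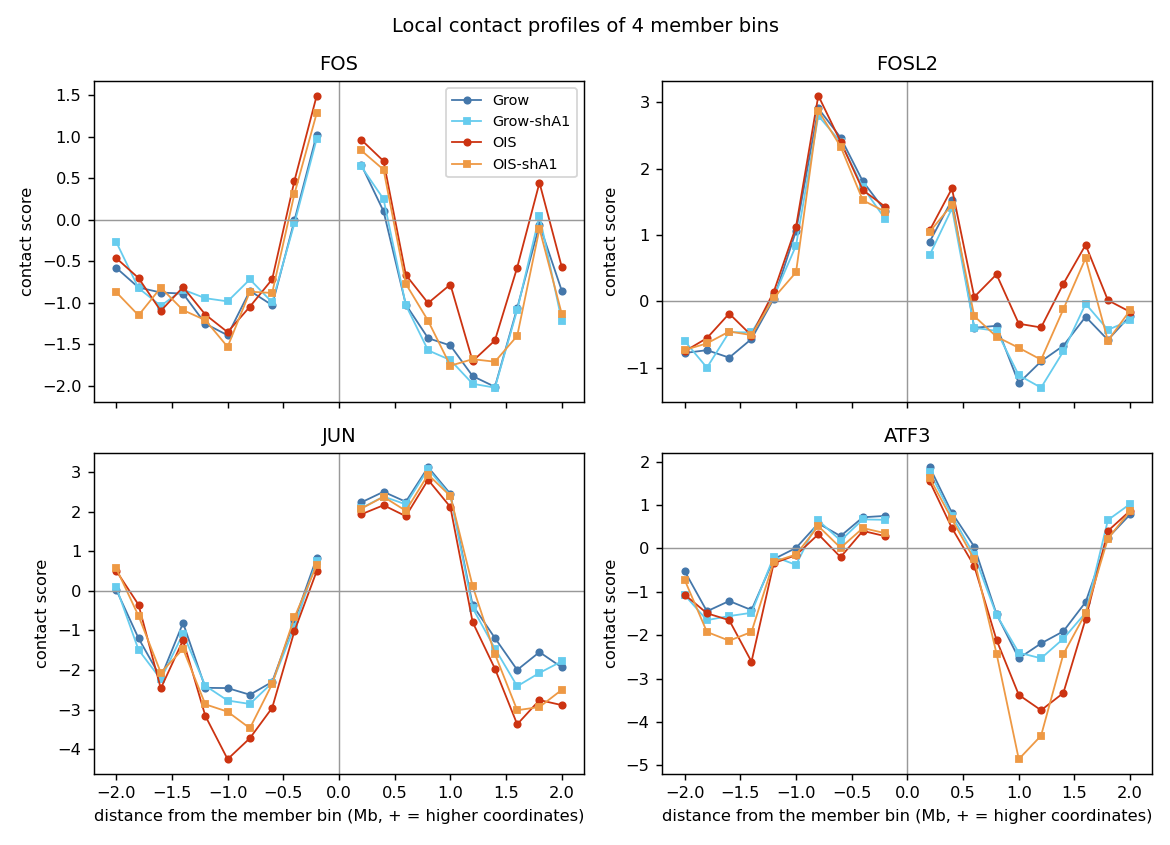
Contact scores of the FOS, FOSL2, JUN and ATF3 bins with each bin up to 10 bins away, for the 4 maps. The horizontal axis is the distance from the gene's bin in Mb, positive toward higher coordinates, and the vertical axis is the contact score. The OIS line lies above the Grow line on the higher-coordinate side of FOS and FOSL2 and below it over most of the JUN and ATF3 profiles.

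Other bZIP genes lie within this stretch. BATF and JDP2, which encode AP-1 partners that can oppose FOS-containing dimers, start together in the bin next to FOS, at 243 and 149 kb from its start. The contact score of that bin with the FOS bin was 0.66 in Grow, 0.64 in Grow-shA1, 0.96 in OIS and 0.83 in OIS-shA1. FOS and this bin were in contact above the average for their distance in all 4 maps, most so in OIS. On chromosome 1, BATF3 starts 91.1 kb from ATF3 in the adjacent bin, with scores of 1.88, 1.76, 1.55 and 1.62 in Grow, Grow-shA1, OIS and OIS-shA1. That contact was lower in both OIS maps. BATF2, 5 bins from FOSL1, had scores of -1.27, -0.87, -0.81 and -0.79 in the same order, with Grow lowest.

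The other FOS-family genes were harder to measure. FOSB, an inducible FOS protein, had local scores of -0.53 ± 0.81, -0.47 ± 0.74, -0.64 ± 0.87 and -0.56 ± 1.01 in Grow, Grow-shA1, OIS and OIS-shA1 (SD over 18 pairs), with no difference called. FOSL1 encodes FRA1, a FOS protein induced by sustained RAS signalling. Over its 20 listed pairs FOSL1 had -0.99 in Grow, -0.76 in Grow-shA1, -0.84 in OIS and -0.92 in OIS-shA1. Its local mean over kept neighbours rested on 5 pairs because most bins around it failed the listing threshold. On those 5 pairs OIS-shA1 minus Grow-shA1 was -0.69 and Grow-shA1 minus Grow was 0.53, both called, and over all 20 pairs the same differences were -0.16 and 0.23. The FOSL1 calls thus depended on which neighbours were counted.

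JUN differed in the opposite direction to FOS. JUN encodes c-Jun, which can form AP-1 with itself or with a FOS protein. Its local score was -0.42 ± 1.95 in Grow, -0.56 ± 2.00 in Grow-shA1, -0.95 ± 2.27 in OIS and -0.67 ± 2.16 in OIS-shA1 (SD over 20 pairs). The large SD reflects high scores on the higher-coordinate side, with a mean of 0.55 in Grow, and low scores on the other, with -1.39. OIS was lowest and Grow highest. OIS was below Grow in 18 of 20 pairs, including 10 of 10 on the higher-coordinate side.

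The JUN difference OIS minus Grow was -0.53, at percentile 18.7, and was not called, since the median bin of chromosome 1 was itself at -0.31. With shA1 it was -0.11, at percentile 63.6. Between the senescent maps, OIS-shA1 was above OIS by 0.28, at percentile 94.0, where the median bin was at -0.03, and 17 of 20 pairs were higher. This difference was 0.06 when the median over pairs replaced the mean and 0.11 over the 11-bin window. The difference of the differences was 0.42, at percentile 92.2. The 11-bin window showed part of the same pattern, with local contact lower in OIS than in Grow in 11 of 11 bins and higher in OIS-shA1 than in OIS in 9 of 11. In that window 6 of the 11 bins were A bins.

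JUNB, an immediate-early gene, and JUND, the JUN gene that is most steadily expressed, lie 5.6 Mb apart on chromosome 19. JUNB had local scores of -0.14 ± 0.83, -0.09 ± 0.89, -0.24 ± 1.32 and -0.13 ± 1.08 in Grow, Grow-shA1, OIS and OIS-shA1 (SD over 17 pairs). None of its differences was called. JUND had -0.56 ± 1.19, -0.47 ± 1.13, -0.68 ± 1.43 and -0.75 ± 1.45 (SD over 16 pairs). Its 4 differences were not called, but the difference of the differences was, at -0.16 and percentile 8.47. Among A bins alone JUND was at percentile 12 in this measure, outside the called tail. Its pairs split by side: toward lower coordinates OIS was above Grow in 8 of 8 pairs, by 0.30, and toward higher coordinates it was below, by -0.54, with 2 of 8 pairs higher. The JUND start lies 2357 bases from an edge of its bin, so reads around the gene are divided between neighbouring bins. In its window 11 of 11 bins had lower local contact in OIS than in Grow and 11 of 11 in OIS-shA1 than in Grow-shA1.

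ATF3, a stress-induced bZIP factor, behaved alike with and without shA1. Its local score was -0.41 ± 1.21 in Grow, -0.51 ± 1.28 in Grow-shA1, -0.89 ± 1.54 in OIS and -0.91 ± 1.73 in OIS-shA1 (SD over 20 pairs). Both senescent maps lay below both growing maps. OIS minus Grow was -0.48 and OIS-shA1 minus Grow-shA1 was -0.40, at percentiles 23.6 and 15 of chromosome 1, neither called. In each of these comparisons 18 of 20 pairs were lower, and 11 of the 11 bins of the window.

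CEBPB had among the lowest local contact on its chromosome. Its local score was -1.38 ± 1.13 in Grow, -1.32 ± 1.15 in Grow-shA1, -1.37 ± 1.32 in OIS and -1.37 ± 1.21 in OIS-shA1 (SD over 20 pairs), at percentiles 2.17, 1.51, 3.51 and 3.18 of chromosome 20. CEBPB was thus near the bottom of its chromosome in each map, with the lower-coordinate side at -1.95 in Grow and the higher at -0.82. CEBPD had -0.25 ± 0.88, -0.24 ± 0.92, -0.51 ± 1.20 and -0.53 ± 1.13 in Grow, Grow-shA1, OIS and OIS-shA1 (SD over 19 pairs). Both OIS maps were lower, by -0.26 and -0.29, at percentiles 24.8 and 14.4 of chromosome 8, and neither was called.

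**Figure D3:**
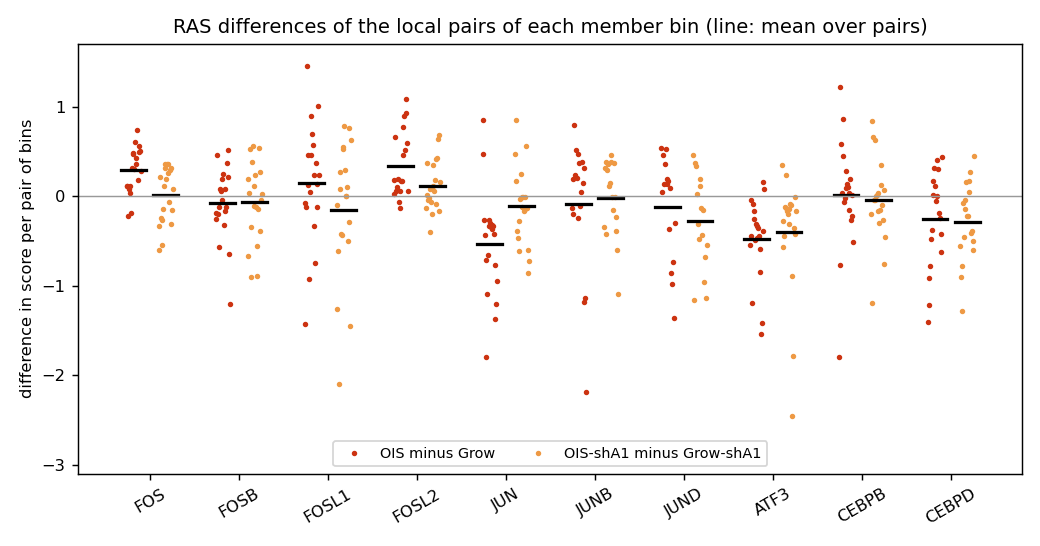
Differences in local contact between senescent and growing cells, without and with shA1, for each gene over all listed local pairs. The vertical axis is the score difference; points are single pairs of bins and short lines are means over pairs. FOS and FOSL2 lie above 0 without shA1, at 0.29 and 0.34, and nearer 0 with it, while JUN, ATF3 and CEBPD lie below 0 without it.

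Far contacts were measured on fewer pairs in senescent cells, which sets a limit on the distal values. A pair absent from a map's list has no score. The share of distal B bins listed with the gene was lower in OIS than in Grow for all 10 genes: from 89.8% to 63.5% for FOS, from 68.3% to 24.6% for JUNB, and from 90.5% to 81.8% for CEBPD. Contacts with A bins were listed more fully, with FOS at 100%, 100%, 100% and 99.4% in Grow, Grow-shA1, OIS and OIS-shA1. FOS was the fullest in OIS, where the share with A bins was 41.8% for FOSL1 and 66.3% for JUND. Kept A bins of the same chromosomes also lost listed pairs. On chromosome 14 the listed B share of the median among 169 kept A bins differed by -14.2 percentage points between OIS and Grow, against -26.3 for FOS, at percentile 8.58. For JUNB the difference was -43.7, and no kept A bin of chromosome 19 had a lower one. CEBPD, JUN and JUND lost less than the median A bin of their chromosomes. FOSB, JUNB and JUND were just under the listing threshold in OIS, with 49.3%, 49.3% and 48.9% of all pairs listed, and FOSL1 had 26.6%. Distal means are therefore given for the other 6 genes, over pairs listed in all 4 maps. With B bins these were 95 of 623 possible pairs for FOSL2, 51 of 177 for CEBPB and 186 of 543 for JUN. ATF3 had 195 of 548, FOS 125 of 266 and CEBPD 256 of 402. For FOSB, FOSL1, JUNB and JUND the only far contacts given are the gene pairs on chromosome 19 and 1 block for FOSL1, which rest on the few pairs listed. The whole maps differed as well, with 4631800 listed pairs in Grow, 4358563 in Grow-shA1, 4123451 in OIS and 4032189 in OIS-shA1, and the part of depth in the listing was not tested.

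**Figure D4:**
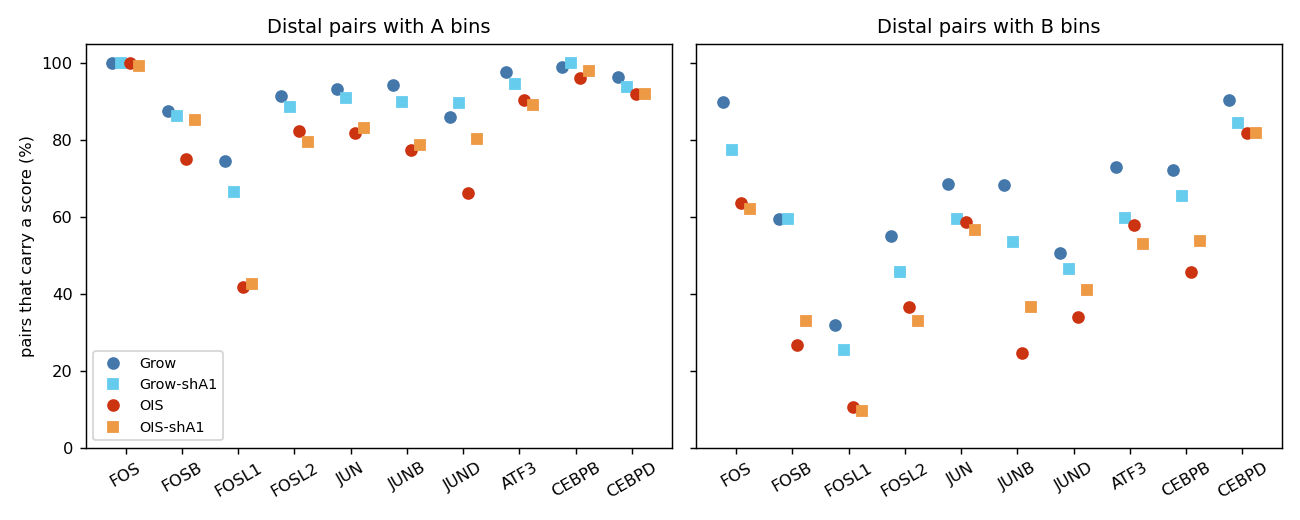
Share of distal pairs listed for each gene in the 4 maps, with A bins and with B bins. The vertical axis is the percentage of distal bins of that compartment that have a score with the gene's bin. Every gene's B share is lower in OIS than in Grow, and FOSL1 has the lowest B shares, from 31.8% in Grow to 9.50% in OIS-shA1.

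Each of the 6 genes met A bins more than B bins at a distance in each of the 4 maps. The compartments were assigned from the Grow map, in which these genes were A bins. That direction was therefore largely set by the definition and says nothing particular about these genes. ATF3 had the highest distal A score, with 0.47 ± 0.48 in Grow, 0.47 ± 0.54 in Grow-shA1, 0.44 ± 0.68 in OIS and 0.45 ± 0.64 in OIS-shA1 (SD over 335 pairs), at percentiles 97.7 to 98.5 of chromosome 1. JUN followed with 0.36, 0.37, 0.33 and 0.34, and FOS had 0.33, 0.35, 0.36 and 0.42. FOSL2 had 0.21, 0.22, 0.18 and 0.24, and CEBPD 0.13, 0.07, 0.19 and 0.15. Across the maps the scores of ATF3, JUN and FOSL2 spanned less than those of FOS and CEBPD. The widest span was that of CEBPB, with 0.16 ± 0.63, 0.05 ± 0.80, 0.18 ± 0.94 and 0.38 ± 0.81 (SD over 94 pairs), with OIS-shA1 highest. Scores with B bins were negative for each of these genes in each map. They were lowest for CEBPB, at -1.41 ± 0.70, -1.45 ± 0.85, -1.37 ± 1.03 and -1.23 ± 0.96 (SD over 51 pairs), at percentiles 0.17 to 1.17 of chromosome 20. FOS had -0.85, -0.99, -1.05 and -1.06, so that its distal B contact was lower in the other 3 maps than in Grow.

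Distal differences between OIS and Grow were not called for any of the 6 genes. For contact with B bins they were -0.20 for FOS, -0.08 for FOSL2, -0.02 for JUN, -0.04 for ATF3, 0.04 for CEBPB and -0.02 for CEBPD, and 69.3% of all kept bins were lower in this comparison. In OIS-shA1 against Grow-shA1, where 65.1% of kept bins were lower, they were -0.07, 0.02, 0.21, 0.08, 0.22 and 0.07 in the same order. FOS was lower in both comparisons, while the others were above 0 with shA1.

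When split by compartment, 3 of 24 distal differences with B bins and 2 of 24 with A bins were called, all of them high. These shares are below the 20% of differences called over all kept bins, which counts both ends, 10% each. The calls fell on JUN and CEBPB. The JUN distal B score was -0.41 ± 0.62 in Grow, -0.49 ± 0.69 in Grow-shA1, -0.43 ± 0.73 in OIS and -0.28 ± 0.76 in OIS-shA1 (SD over 186 pairs). OIS-shA1 was the highest. It was above Grow-shA1 by 0.21, at percentile 94.4, and above OIS by 0.15, at percentile 95.9. The difference of the differences was 0.23, at percentile 98.9. Ranked among A bins alone, these JUN values were at percentiles 87.7, 96.7 and 97.6. The difference from Grow-shA1 thus fell outside the called tail of A bins. The difference from Grow-shA1 was 0.08 over the 11-bin window and 0.08 when unlisted pairs were set at the 1st percentile of listed scores. For CEBPB, OIS-shA1 was above Grow-shA1 by 0.33 with A bins, at percentile 99.2, and by 0.22 with B bins, at percentile 94.8. It was above OIS by 0.21 with A bins, at percentile 92.5. When CEBPB was ranked among A bins alone, these were at percentiles 99.6, 86.9 and 95.3. The CEBPB value with B bins was thus outside the called tail of A bins. Contact of CEBPB with A bins and with B bins was thus higher together. Over the 11-bin window the 3 CEBPB values of 0.33, 0.22 and 0.21 were 0.16, 0.09 and 0.06. The CEBPB value with B bins was 0.08 when unlisted pairs were set at the 1st percentile of listed scores. The differences of the differences were 0.32 with A bins and 0.18 with B bins for CEBPB, at percentiles 96.8 and 92.8. ATF3 was also called in this measure with B bins, at 0.13 and percentile 90.9. Against A bins alone the CEBPB values were at percentiles 99.6 and 86.9, and that of ATF3 at 81.3. Both values with B bins were thus outside the called tail of A bins. For JUN the difference between OIS-shA1 and OIS was 1.4e-06 when the 11-bin window replaced the bin. Over the 4 measures, local contact included, 15 of 112 differences were called, 14 high and 1 low. Over all distal bins together 5 of 24 differences were called, and all 5 were high, where the high end of the background alone is 10%. These were CEBPB in OIS-shA1 against Grow-shA1, at 0.29, and against OIS, at 0.18, JUN in OIS-shA1 against OIS, at 0.06, and FOSL2 in OIS-shA1 against OIS, at 0.05, and in Grow-shA1 against Grow, at -0.0034 where most bins were lower. Of these 5, the first kept its sign under the alternatives tried and the other 4 turned under at least 1. Against A bins alone, FOSL2 in Grow-shA1 against Grow was at percentile 87.5, outside the called tail, and the other 4 stayed inside it.

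**Figure D5:**
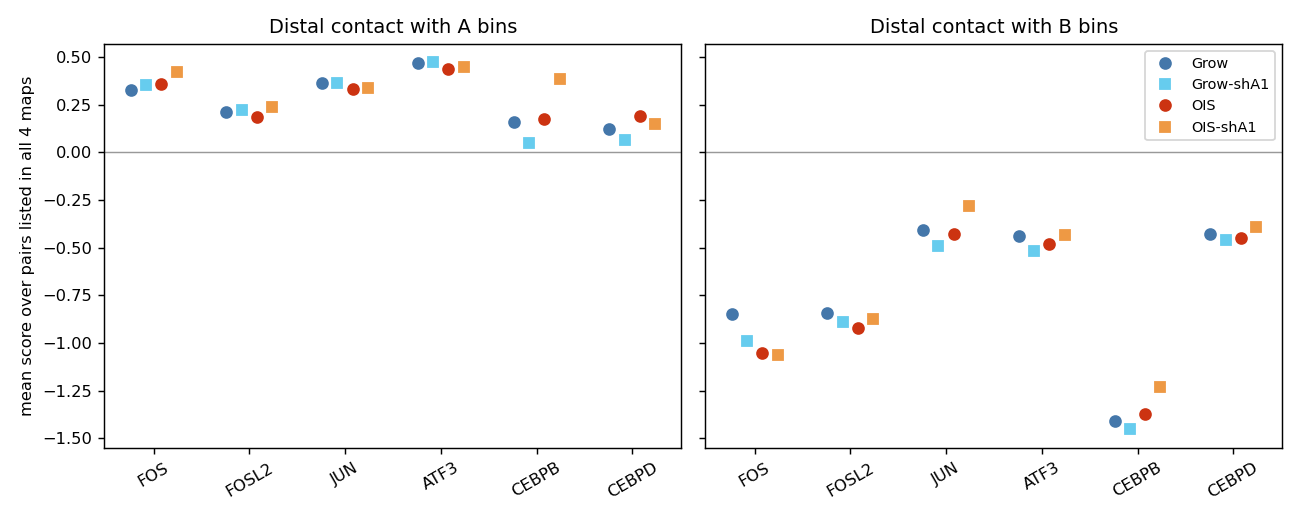
Distal contact of the 6 genes with A bins and with B bins in the 4 maps. The vertical axis is the mean contact score over pairs listed in all 4 maps, and points mark the maps. A scores lie above 0 and B scores below 0 for every gene, with CEBPB lowest for B bins at -1.41 in Grow. The genes were A bins of the Grow map, so the direction was largely set by the definition.

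Pairs of the genes on the same chromosome were compared over 3 by 3 bins. The blocks they are ranked against mix A and B bins, while these genes all lie in A bins, and A blocks alone were not compared. JUN and ATF3 lie 132.8 Mb apart on chromosome 1 and had a score of 0.54 in Grow, at percentile 94.2 of blocks at that distance. The score was 0.21 in Grow-shA1, at percentile 64.5, 0.08 in OIS and 0.09 in OIS-shA1, near the middle of such blocks in both senescent maps. The difference OIS minus Grow was -0.47, at percentile 5.46, and rested on 6 listed pairs. Grow-shA1 minus Grow was -0.33, at percentile 4.28, so the growing maps differed as well. Over 5 by 5 bins the 2 differences were -0.31 and -0.13, at percentiles 12.0 and 15.9. The bins of JUNB, JUND and FOSB were under the listing threshold in OIS, so their pairs rest on fewer values. JUNB and JUND had 0.28 in Grow, 0.71 in Grow-shA1, 1.09 in OIS and 0.52 in OIS-shA1 over 8 pairs, and OIS minus Grow was 0.80, at percentile 99.3 of 900 blocks. This contact was higher in OIS while the local contact of each gene was not. JUND and FOSB, 24.8 Mb apart, had 0.54, 0.47, 0.72 and 0.70 over 7 pairs. JUNB and FOSB, 30.4 Mb apart, had 1.15, 0.73, 1.59 and 0.69, but over only 2 pairs.

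Single far partners were found for each of the 6 genes as the 3-bin block with the largest difference between OIS and Grow. These were chosen for that difference, so their OIS and Grow values are a description, and the shA1 maps are values the choice did not use. The largest increase was also an increase in OIS-shA1 over Grow-shA1 for 6 of 6 genes, and the largest decrease was also a decrease for 5 of 6, the exception being CEBPD at 0.02. The same share was not computed for the blocks of other bins, so these counts say nothing particular about the genes. For FOS the partner with the largest increase was chr14:91396802-91998656, which holds RPS6KA5, a kinase downstream of the MAP kinases, and CCDC88C. Its scores were -0.22 in Grow, -0.52 in Grow-shA1, 0.72 in OIS and 0.68 in OIS-shA1, so both senescent maps lay above both growing maps. For JUN it was chr1:110400961-110995534, which holds CSF1, a macrophage growth factor, with 0.20, 0.12, 1.03 and 0.62. For CEBPB it was chr20:60799030-61396923, which holds LAMA5, a laminin chain, with 0.39, 0.02, 1.26 and 0.99. For ATF3 it was chr1:232596121-233200775 with SIPA1L2, at 0.81, 1.15, 1.51 and 1.42. For FOSL2 it was a B block with SIX2 and SIX3, homeobox factors, with -1.08, -0.85, -0.53 and -0.36. The blocks with the largest decrease included NEGR1 for JUN, with 0.48, 0.29, -0.39 and 0.20, and EPAS1, a hypoxia factor, for FOSL2, with 0.78, 0.90, 0.14 and 0.45. FOSL1, with 26.6% of its pairs listed in OIS, had only 16 blocks with all pairs listed. The one with its largest increase, chr11:102399242-103000028, held the matrix metalloproteinase cluster with MMP1, MMP3 and MMP10, with scores of -0.27, -0.05, 0.13 and 0.10. Both senescent scores lie near the average for the distance. The FOSL1 bin held 16 protein-coding starts, so this contact cannot be assigned to FOSL1.

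The other bZIP genes were read in the same way, from a list of 42 genes of which 36 lay in kept bins, 26 of these genes' 35 bins being A. Local contact was lower in OIS than in Grow for 22 of 36 and lower in OIS-shA1 than in Grow-shA1 for 24 of 36, where 65% and 66% of all kept bins were lower. Distal B contact was lower in OIS for 31 of 36, with a median of -0.16. Of all kept bins 69.3% were lower, with a median of -0.09, and of kept A bins 75.8%, with a median of -0.11. With shA1 it was lower for 23 of 36, against 65.1% of kept bins. In OIS minus Grow 3 of the 36 were called, against 20%. TEF, a clock-output factor, was called high in distal B contact in OIS, at 0.73, but was at -0.23 with shA1. Its difference between the growing maps, Grow-shA1 minus Grow, was larger still, at 1.21 and percentile 99.7. CREB1, a CRE-binding factor, and BACH2, a repressor of AP-1 sites, were called low, at -0.29 and -0.35. The 6 AP-1 and C/EBP genes measured at a distance had a median of -0.03 for the same difference.

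Genes of the RAS and MAP kinase pathway, which carries the signal from RAS to AP-1, formed a list of 30, with 25 in kept bins. Local contact was lower in OIS for 13 of 25 and lower in OIS-shA1 than in Grow-shA1 for 16 of 25, against 65% and 66% of all kept bins. Distal B contact was lower for 21 and 19 of 25, against 69.3% and 65.1%, with medians of -0.20 and -0.13. In OIS minus Grow 1 gene was called low and 3 high, against 20% called over all kept bins. MAPK9, which encodes the JNK2 kinase of JUN, was called low in distal B contact in both comparisons, at -0.62 in OIS against Grow and -0.78 with shA1. MAPK11 and MAPK12, p38 kinases that share a bin, were called high in OIS at 0.42 and stood at 0.06 with shA1, and GRB2, an adaptor upstream of RAS, was called high at 0.11. The list values are counts without a test.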

How the data were processed

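Hi-C contacts cut with HindIII were processed by the authors with HiC-Pro on hg19, and the deposited score is a balanced, distance-corrected contact score per pair of bins, with replicates merged into 1 map per condition. Bin ends matched the chromosome ends of GRCh37 for 24 of 24 chromosomes, and 14406 of 14420 inner edges lay within 6 bases of a HindIII site. Start sites were taken from the annotation, and bins with under 50% of pairs listed were left out of the background. Means were taken over pairs listed in all 4 maps with kept partner bins. Python 3.11.15, numpy 2.4.6, pandas 2.3.3, pysam 0.24.0 and matplotlib 3.10.9 were used. The code was tested on simulated data. No test was possible with 1 map per condition, and 4 comparisons were made. The maps hold scores and no read counts, so no counting error could be set on a contact. The 10 genes and the gene lists were chosen with earlier results of these data known. The genes named are the 10 members, the called genes of the lists, the list genes within 5 bins of a member and genes in the partner blocks, of which a few were picked for known function after the values were seen. The sequence windows come from GRCh37. Alternatives numbered 13, of which 3 were added after the data were seen.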

Additional observations from a re-analysis of the deposited data

How the results depend on the processing

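No paired analysis was possible because the maps merge the replicates of each condition. Among recomputed values that answer a comparison, 109 were counted as unchanged and 19 as moved, but unchanged did not mean close. The CEBPB distal B value of 0.078 against 0.22, given below, was counted as unchanged. So was a share of 40% of genes with lower local contact in OIS than in Grow, with unlisted pairs as 0, against 60%. The share of genes with lower local contact in Grow-shA1 than in Grow, 30% in the report, was 70% over 11-bin windows, 10% after centring per chromosome and distance, and 50% with the median over pairs, with 5 Mb in place of 2 Mb, or over the 6 kept genes. Local differences of FOS, FOSL2, JUN and ATF3 between OIS and Grow kept their sign under 10 of 10 alternatives, from 0.01 to 0.33 for FOS and -0.53 to -0.13 for JUN. The distal B difference of JUN between OIS-shA1 and OIS was 1.4e-06 over 11-bin windows and 0.32 within 10 Mb, and that between OIS-shA1 and Grow-shA1 ran from 0.08 to 0.30 around 0.21. The distal B difference of CEBPB between OIS-shA1 and Grow-shA1 was 0.40 after division by the SD at each distance, 0.094 over 11-bin windows and 0.078 with unlisted pairs at the 1st percentile of listed scores, against 0.22, and its distal A difference between OIS-shA1 and OIS was 0.064 over 11-bin windows. For JUN with ATF3, the single pair of bins gave -0.83 for OIS minus Grow and -0.84 for Grow-shA1 minus Grow, and 5 by 5 bins gave -0.13 for the latter. For JUNB with JUND over 5 by 5 bins, senescent against growing cells with shA1 gave 0.35, the senescent maps with against without shA1 gave -0.048, and the growing maps gave 0.072. For JUNB with FOSB, the single pair gave 0.43 for senescent against growing cells with shA1 and -1.02 between the growing maps, and 5 by 5 bins gave -0.37 between the senescent maps and -0.097 between the growing maps. Single pairs of JUND with JUNB or FOSB were not listed in all maps. Among called differences the sign turned for total distal contact: FOSL2 in OIS-shA1 minus OIS (-0.029 within 10 Mb), FOSL2 in Grow-shA1 minus Grow (0.0033 after division by the SD, 0.0099 after centring, 0.027 over all listed pairs, 0.028 with unlisted pairs as 0 and 0.018 within 10 Mb), JUN in OIS-shA1 minus OIS (-0.042 over 11-bin windows) and CEBPB in OIS-shA1 minus OIS (-0.011 with unlisted pairs as 0). The causes were not tested. The 10 Mb limit, the floor for unlisted pairs and the restriction to kept genes were chosen after seeing the data.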
